A study of Mus musculus with 2 samples.

Results

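Genes best known from tissues other than the B lineage, Nyx, Prm1, Pls1, Rasgef1a, Gpr176 and Dnah5, were followed probe by probe in autoreactive immature B cells set against non-autoreactive ones. They are 6 of 27666 genes named on the array, and 12 of 41174 probes. The genes were selected on the measured ratios of their brightest probes, which were among the highest in these same data, at ranks 4, 7, 8, 9, 11 and 12 of 15101 genes tested, so the size and direction of those ratios are a description and carry no test. All gene probes carrying one of the 6 names or an older synonym were kept, with both channels. The scanner files list Pls1 as AI427122 and Dnah5 as Dnahc5.

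The autoreactive cells came from untreated BALB.B mice carrying 3-83Igi, Rag1-/- and H-2b. The non-autoreactive cells came from untreated BALB/c mice carrying 3-83Igi and H-2d. Both groups thus share the 3-83 knock-in B cell receptor, a single specificity whose target is an H-2b class I protein. Bone marrow cells were pooled and sorted as B220+ and negative for CD23, CD43 and IgD. On each of 2 arrays, RNA of autoreactive cells (Cy5, red) was hybridised together with RNA of non-autoreactive cells (Cy3, green). The labels number the autoreactive pools and do not say which animals entered them. The SDs below thus measure the spread between these 2 arrays. The SEs are those of limma, which also draw on the variance over all probes tested. Neither can be read as a spread between animals. Strain, H-2 haplotype, Rag1 genotype and dye follow the groups and cannot be told apart.

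Every ratio below is autoreactive over non-autoreactive on a log2 scale, after background correction and intensity-dependent (loess) normalisation, unless stated otherwise. As a check of the labels, H2-Ea, a class II gene that H-2b mice do not express, had log2 ratios of -5.22 and -5.26 on arrays 1 and 2. All 9 B cell marker genes were tested and detected in both channels, of which Cd79b, Blnk and Ighm were called higher and Pax5 and Ptprc lower, or 55.6%. Of 44 tested markers of T, NK, myeloid, granulocyte, erythroid, plasmacytoid dendritic, megakaryocyte and stromal cells, 0 were called higher and 4 lower by limma, and 1 was higher and 19 lower at an unadjusted p under 0.05. The called share was 9.09%, against 6.88% over all genes tested, whereas no share over all genes is given for the unadjusted counts. Array 1 gave these markers a median log2 ratio of -0.13 and array 2 one of -0.68. In bulk RNA, fewer cells of a type and less RNA per cell cannot be told apart.

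Each of the 6 genes has a well-known role elsewhere. Nyx encodes nyctalopin, a leucine-rich repeat protein at the dendrites of retinal ON bipolar cells whose loss causes congenital stationary night blindness. Prm1 encodes protamine 1, which replaces histones in the nucleus of maturing spermatids. Pls1 encodes plastin 1, an actin-bundling protein of intestinal microvilli and of hair cell stereocilia. Rasgef1a encodes a guanine nucleotide exchange factor of the Ras family. Gpr176 encodes an orphan G protein-coupled receptor of the suprachiasmatic nucleus, where it acts on the circadian clock. Dnah5 encodes a heavy chain of the outer dynein arm, the motor of motile cilia.

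The stretches upstream of the RefSeq start sites are shown for 4 genes because they differ widely in CG dinucleotides, which are in capitals, although the genes were chosen for like ratios. Each is the 250 bases before the start, 5′ to 3′ on the gene's strand, in build GRCm38.p6. The windows are chrX:13460840-13461089 (plus strand) for Nyx, chr16:10796824-10797073 (minus strand) for Prm1, chr6:118011255-118011504 (plus strand) for the first of 2 Rasgef1a starts, and chr2:118373420-118373669 (minus strand) for Gpr176.
Nyx: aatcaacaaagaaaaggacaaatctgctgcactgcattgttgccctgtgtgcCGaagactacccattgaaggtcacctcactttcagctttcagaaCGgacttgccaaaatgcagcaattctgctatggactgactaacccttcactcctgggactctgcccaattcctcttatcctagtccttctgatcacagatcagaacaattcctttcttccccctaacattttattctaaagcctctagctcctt
Prm1: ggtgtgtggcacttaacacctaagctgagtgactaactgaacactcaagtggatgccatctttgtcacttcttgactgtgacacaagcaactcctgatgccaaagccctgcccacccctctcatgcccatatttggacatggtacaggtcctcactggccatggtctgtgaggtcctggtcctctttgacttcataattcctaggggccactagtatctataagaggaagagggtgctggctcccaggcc
Rasgef1a: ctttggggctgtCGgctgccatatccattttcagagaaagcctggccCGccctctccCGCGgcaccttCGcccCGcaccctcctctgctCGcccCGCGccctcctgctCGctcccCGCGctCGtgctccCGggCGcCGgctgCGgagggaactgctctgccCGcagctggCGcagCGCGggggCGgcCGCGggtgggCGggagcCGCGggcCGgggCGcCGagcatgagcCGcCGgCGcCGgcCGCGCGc
Gpr176: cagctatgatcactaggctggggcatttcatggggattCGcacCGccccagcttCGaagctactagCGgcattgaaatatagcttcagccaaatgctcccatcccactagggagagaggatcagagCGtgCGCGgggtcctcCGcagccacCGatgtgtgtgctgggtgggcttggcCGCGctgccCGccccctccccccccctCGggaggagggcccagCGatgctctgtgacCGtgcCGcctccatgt
Prm1 had 0 CG dinucleotides in this window and Nyx had 2, against 37 for the first start of Rasgef1a and 16 for Gpr176. The median over 32851 such windows was 6. Dnah5 had 4, Pls1 had 10 and the second Rasgef1a start had 14. GC content ran between 41.2% at Dnah5 and 78.4% at the first Rasgef1a start, against a median of 52.4% over all windows. Of 5 short motifs searched on both strands, none was present in the windows of all 6 genes. TATAA, the core of a TATA box, was found at Prm1 alone, 32 bases before the start, and in 22.8% of all windows. GGGCGG, a GC box, was found in both Rasgef1a windows and at Gpr176, and in 32.7% of all windows. TGACG, part of a cAMP response element, and CAGGTG, an E-box variant, were found at Pls1 alone, against 17.8% and 17.2% of all windows. CACGTG, the E-box of clock proteins, was in none of these windows and in 6.02% of all windows. These are matches of letters only, and no binding was measured.

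Nyx had 1 bright and 1 dim probe. Its brighter probe, A_51_P449867 at chrX:11922109-11922168, read a mean spot intensity of 3375 and 3936 scanner units in the autoreactive channel on arrays 1 and 2, against 97.7 and 114 in the non-autoreactive channel. The autoreactive spots thus stood far above the non-autoreactive ones on both arrays. The non-autoreactive spots were flagged as well above background by the scanner software, at 2.96 and 3.26 times their local background. The log2 ratio was 3.48 and 3.90, a mean of 3.69 ± 0.30 (SD, n = 2) or 12.9-fold. The other Nyx probe, A_52_P619679 at chrX:11920380-11920439, read 160 and 179 in the autoreactive channel, against 55.1 and 53.8 in the non-autoreactive channel, which was not well above background. Its log2 ratios were 0.41 and 0.81, a mean of 0.61 or 1.52-fold. That mean ran between 0.54 and 1.95 under the scalings tried. The 2 Nyx probes shared a direction, and the dim probe sets no exact size.

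The 3 probes of Prm1 gave the same direction and were well above background in both channels on both arrays. Probe A_52_P533280 at chr16:10473905-10473964 read 6788 and 10193 in the autoreactive channel, against 348 and 629 in the non-autoreactive channel. Its log2 ratio was 2.78 and 2.82, a mean of 2.80 ± 0.027 (SD, n = 2) or 6.96-fold. Probe A_52_P533287 at chr16:10473981-10474040 gave 2.60 and 2.71. These neighbouring probes differed by 0.14 in their means. Probe A_51_P162984, at chr16:10474052-10474203, gave 1.68 and 2.23, with 1936 and 2846 in the autoreactive channel, against 223 and 282 in the non-autoreactive channel. The files give it a span of 152 positions, where the others span 60. The spots around it on array 2 had a median log2 ratio of 0.54, the highest around any spot of the 6 genes, and the part of this in its ratio was not tested.

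Pls1 and Gpr176 had a single probe each. The Pls1 probe, A_51_P101347 at chr9:95398668-95398727, read 1946 and 2126 in the autoreactive channel, against 107 and 130 in the non-autoreactive channel. Its log2 ratio was 2.67 and 2.88, a mean of 2.77 ± 0.15 (SD, n = 2). The Gpr176 probe, A_52_P228551 at chr2:118018155-118018214, read 1332 and 1691 in the autoreactive channel, against 92.0 and 105 in the non-autoreactive channel. For neither gene was another probe there to compare. The log2 ratio of Gpr176 was 2.36 and 2.88, a mean of 2.62 ± 0.37 (SD, n = 2). Gpr176 lies 16.5 Mb from Rag1, the gene disrupted in the autoreactive mice, on the same chromosome. The brightest of 3 probes of Rag1, a recombinase gene, had log2 ratios of 4.25 and 4.02, and the others had 3.35 and 3.28, and 1.00 and 1.08. All 3 were thus higher in the cells labelled Rag1-/-, and whether they lie in the disrupted stretch is not given in the sources used here.

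Rasgef1a was raised at both of its probes, to different extents. Probe A_51_P200517 at chr6:118116939-118116998 read 2237 and 2650 in the autoreactive channel, against 114 and 171 in the non-autoreactive channel. Its log2 ratio was 2.72 and 2.82, a mean of 2.77 ± 0.069 (SD, n = 2). Probe A_51_P310066 at chr6:118115900-118115959 gave 1.58 and 1.77, with 744 and 965 in the autoreactive channel, against 92.4 and 138 in the non-autoreactive channel. The 2 probes lay 1.09 apart on the log2 scale, and both were well above background in both channels on both arrays.

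Dnah5 rested on 1 of its 3 probes. Probe A_52_P485891 at chr15:28577341-28577400 read 975 and 1559 in the autoreactive channel, against 66.7 and 94.1 in the non-autoreactive channel. Its log2 ratio was 2.20 and 2.83, a mean of 2.52 ± 0.45 (SD, n = 2). Probe A_51_P175027, at chr15:28576091-28576150, read 134 and 150 in the autoreactive channel, against 49.9 and 59.8 in the non-autoreactive channel. It was well above background in the autoreactive channel of array 2 alone and in the non-autoreactive channel of neither array, and no fold is drawn from its log2 ratios of 0.44 and 0.45. Probe A_52_P548463, at chr15:28493048-28493107, was not well above background in either channel, with 79.5 and 86.6 in the autoreactive channel, against 41.5 and 43.5 in the non-autoreactive channel. Its log2 ratios of 0.05 and 0.34 are also between dim readings, and under median centring of each array in place of loess it averaged -0.15. Neither dim Dnah5 probe passed the filter for testing, so the value of Dnah5 is that of 1 probe.

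**Figure D1:**
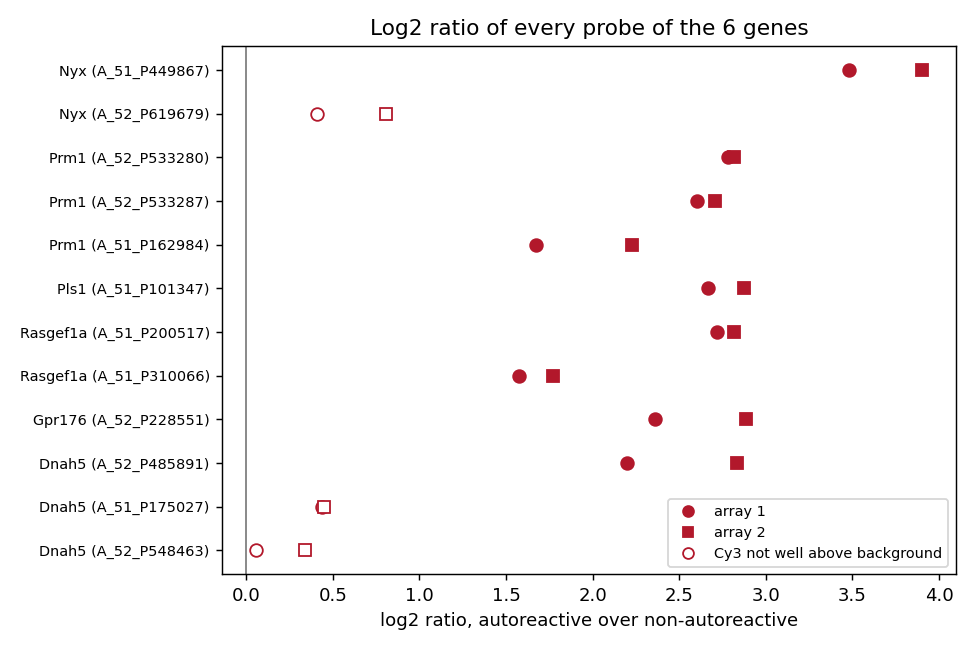
Log2 ratio (horizontal axis, autoreactive over non-autoreactive) of the 12 probes of the 6 genes on array 1 (circles) and array 2 (squares), with open symbols where the Cy3 spot was not well above background. All 24 points lie above 0, each probe is higher on array 2 than on array 1, and the 3 open probes, of Nyx and Dnah5, lie below 1.

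The mean log2 ratios of the 6 brightest probes ran between 2.52 for Dnah5 and 3.69 for Nyx, with a median of 2.77, against a median of -0.0019 over all genes tested. All 6 are among the genes called higher by limma at an adjusted p under 0.05, which were 592 of 15101 genes or 3.92%. The contrast that makes that call also chose the genes, so nothing is read from it. Another 447 genes, or 2.96%, were called lower, so that 6.88% of genes were called in either direction. Median centring moved the median of all genes by 0.58 and gave 9958 genes called higher and 384 lower. Under the scalings tried, the mean ratio of each brightest probe stayed above 2, although its size moved. The Dnah5 probe A_52_P485891 ran between 2.52 and 3.71 and the Nyx probe A_51_P449867 between 3.69 and 4.68. The Gpr176 probe A_52_P228551 ran between 2.62 and 3.57, the Pls1 probe A_51_P101347 between 2.77 and 3.52, the Rasgef1a probe A_51_P200517 between 2.77 and 3.41, and the Prm1 probe A_52_P533280 between 2.80 and 3.44. The ratios given above are thus the lowest of these for all 6.

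The size of a ratio rests on the dim channel, and for 5 of the 6 genes that channel was close to its limit. Without Prm1, the brightest probes read between 66.7 and 171 in the non-autoreactive channel. The lowest such reading that still counted as well above background was 59.9 on array 1 and 65.1 on array 2, and the local background around the 12 probes ran between 28 and 45.5. The brightest Prm1 probe read 9.15 and 15.3 times its local background in this channel, and that of Dnah5 read 2.38 and 3.24 times its own. In all, 10 of the 12 probes were well above background in the autoreactive channel on both arrays, and 9 of 12 in the non-autoreactive channel. None of the 24 spots (0) was saturated or marked as an outlier. On array 2, whose log2 ratios had an SD of 0.50 over all genes against 0.36 on array 1, all 12 probes had the higher ratio.

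**Figure D2:**
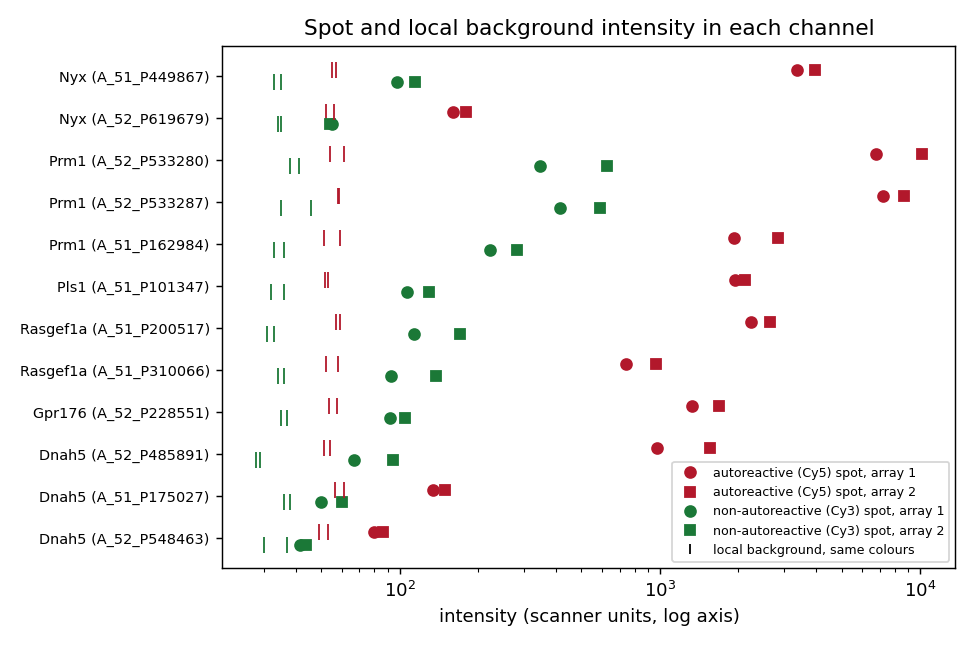
Mean spot intensity (horizontal axis, scanner units, log axis) of each probe in the autoreactive Cy5 channel (red) and the non-autoreactive Cy3 channel (green) on array 1 (circles) and array 2 (squares), with the local background as vertical ticks in the same colours. The green spots of the genes other than Prm1 lie at or below 171, whereas red spots of the brightest probe of each gene lie between 975 and 10193.

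In the 4 genes with several probes, the probe farthest downstream had the highest mean level over both channels and the highest ratio. The genes were chosen by the ratio of their brightest probe, so this order is a description and carries no test. For Nyx and Dnah5 the other probes were dim, so only Prm1 and Rasgef1a give an order between measured ratios. For Prm1 the level of that probe exceeded the next by little, at 10.976 against 10.973 on the log2 scale. For Nyx the bright probe lay 1729 bases downstream of the dim one, and for Rasgef1a the bright probe lay 1039 bases downstream of the other. For Prm1, on the minus strand, the means were 1.95, 2.66 and 2.80 at 0, 117 and 193 bases downstream of the first probe. For Dnah5 the bright probe lay 84293 bases downstream of the first probe and 1250 bases downstream of the second, both of them dim. Among the other genes tested with 2 probes, the downstream one was the brighter in 71.4% of 4094 and had the higher ratio in 42.8%. Of those called higher with 2 probes, the downstream one had the higher ratio in 62.2% of 164 genes, and with 3 probes in 60.6% of 66. The labelling kit primes with oligo-dT at the 3′ end of transcripts, and the part of this in the order of the probes was not tested. Between the highest and the lowest probe the gap in mean log2 ratio was 1.09 for Rasgef1a and 0.85 for Prm1, and for Nyx and Dnah5 no gap is given because their dim probes set no exact ratio.

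Genes that share a tissue, family or pathway with the 6 were called in both directions. Over 7 lists, 95 of 208 genes on the array were tested, and of these 2 were called higher and 7 lower, or 9.47%, against 6.88% of all genes in either direction. Their median log2 ratio was -0.045, against -0.0019 for all genes. At an unadjusted p under 0.05, 11 of the 95 were higher and 21 lower. The share of all genes at that threshold is not given here, so unadjusted counts, here and per list below, are a description only. Only 45.7% of listed genes passed the filter, against 54.6% of all genes on the array, and the other 113 were below it. Under median centring the counts were 37 higher and 3 lower, against 9958 and 384 of all 15101 genes. The called share of the listed genes was then below that of all genes.

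Among genes of the retina, none of the relatives of Nyx was called. Of 34 photoreceptor and ON bipolar cell genes on the array, 7 were tested, 0 were called in either direction by limma, and 1 was higher at an unadjusted p under 0.05. Grm6, the glutamate receptor of ON bipolar cells, and Trpm1, the channel it controls, were below the filter, with ratios between -0.02 and 0.19 on single arrays. Of 17 small leucine-rich proteoglycans, the structural relatives of nyctalopin, 6 were tested, with 0 called and 0 at an unadjusted p under 0.05.

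Of 35 spermatid and sperm genes, 13 were tested, with 0 called higher and 2 called lower, and 0 were higher and 2 lower at an unadjusted p under 0.05. Prm2, the partner of Prm1 in sperm chromatin, was well above background on array 1 alone and had ratios of 0.02 and 0.20. Tnp1, a transition protein that precedes protamines, had ratios of 0.16 and 0.13 and was not called (limma adjusted p = 0.50). Catsper2, a subunit of the sperm calcium channel, had ratios of -0.62 and -0.73 and fell (mean -0.67 ± 0.12, SE, limma adjusted p = 0.031). Dkkl1, a protein of the acrosome, had ratios of -0.57 and -0.59 and fell by 0.58 (limma adjusted p = 0.046). Both calls were lost under median centring and with the 2 channels of an array fitted as separate samples (unpaired channels), and that of Dkkl1 also with other settings given in the closing section.

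Of 23 plastin relatives and brush border genes, 12 were tested, with 1 called higher and 0 lower. At an unadjusted p under 0.05, 1 was higher and 2 lower. Eps8, an actin-capping protein of microvilli, had ratios of 0.61 and 0.66 and rose (mean 0.63 ± 0.12, SE, limma adjusted p = 0.036), and its other probe gave 0.91 and 1.02. The call of Eps8 was lost with the deposited ratios and with unpaired channels. Pls3, the plastin of many solid tissues, had ratios of -0.28 and 0.14, and Lcp1, the plastin of leukocytes, had ratios of -0.17 and -0.63. Neither was called (limma adjusted p = 0.80 and 0.19), and both means turned to positive under median centring, at 0.50 for Pls3 and 0.64 for Lcp1.

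Of 25 Ras family exchange factors, 20 were tested, with 0 called higher and 2 lower. At an unadjusted p under 0.05, 4 were higher and 9 lower, counts that have no share over all genes beside them. Rapgef4, a Rap exchange factor activated by cAMP, had ratios of -1.68 and -2.30 and was at least 3.22-fold lower in autoreactive cells, where its brightest probe was not well above background (limma adjusted p = 0.0039). The other Rapgef4 probe gave -0.91 and -1.29, a smaller difference than that bound. It too was not well above background in the autoreactive channel on both arrays, so its ratio sets no exact size. Rasgrp1, a Ras exchange factor of lymphocytes activated by diacylglycerol, had ratios of -0.58 and -0.67 and fell by 0.63 (limma adjusted p = 0.038), but turned to 0.36 under median centring, and its other probe gave -0.36 and -0.30. The call of Rasgrp1 was also lost with the deposited ratios, with a mean over its probes and with unpaired channels. Rasgef1b, a close relative of Rasgef1a, had ratios of -0.04 and -1.64 and was not called (limma adjusted p = 0.21). Its value came almost wholly from array 2.

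Of 32 circadian genes, 21 were tested, with 1 called higher and 2 lower, and 3 were higher and 4 lower at an unadjusted p under 0.05. Arntl, which encodes the clock activator BMAL1, had ratios of 0.88 and 0.90 and rose (mean 0.89 ± 0.12, SE, limma adjusted p = 0.013). Ciart, a repressor of the clock activators, had ratios of -0.97 and -1.07 and fell by 1.02 (limma adjusted p = 0.0089). The call of Arntl was lost with unpaired channels. Gnaz, the G protein alpha subunit that Gpr176 couples to, was below the filter, and Rgs16, a regulator of G protein signalling in the same nucleus, had opposite ratios of 0.82 and -0.23.

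Of 42 motile cilium genes on the array, 16 were tested, with 0 called higher and 1 lower, and 2 were higher and 4 lower at an unadjusted p under 0.05. Dnah8, another dynein heavy chain, had ratios of -0.72 and -0.79 and fell by 0.75 (limma adjusted p = 0.022), but turned to 0.10 under median centring, and its other probe gave -0.21 and -0.43. The call of Dnah8 was also lost with the deposited ratios, with a mean over its probes and with unpaired channels. Dnaic1, an intermediate chain of the outer dynein arm, had ratios of 0.12 and 0.23 and was not called (limma adjusted p = 0.42). Foxj1, the regulator of motile ciliogenesis, was below the filter.

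**Figure D3:**
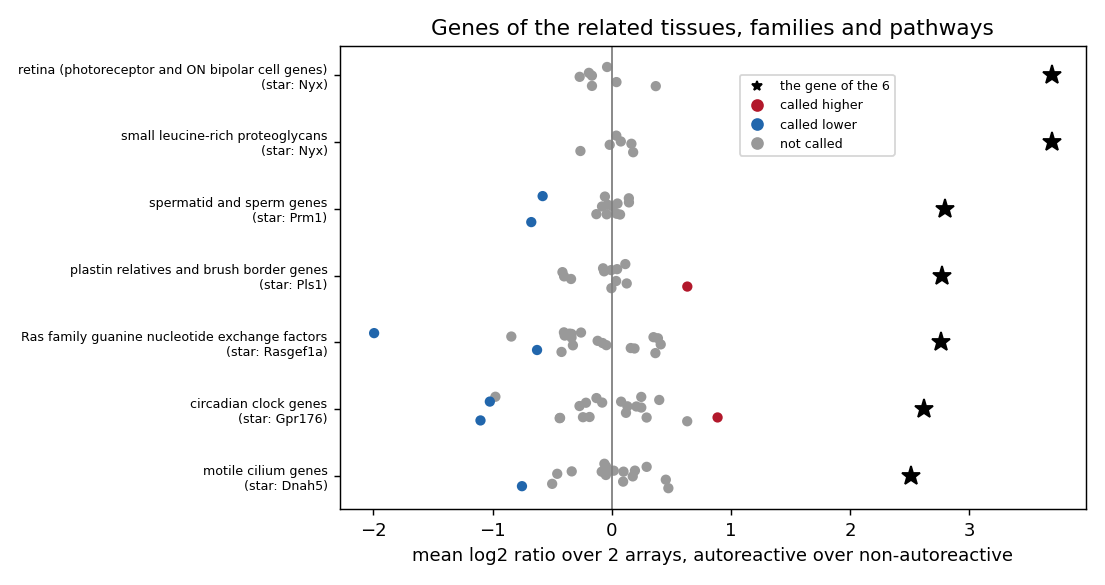
Mean log2 ratio over the 2 arrays (horizontal axis, autoreactive over non-autoreactive) of the tested genes in 7 lists, with genes called higher in red, called lower in blue, not called in grey, and the gene of the 6 that each list belongs to as a star. The 2 red points are Eps8 and Arntl, no listed gene exceeds 0.89, and of the blue points Rasgrp1 and Dnah8 turned to positive under median centring.

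The files give probe positions without naming a genome build, and these place the 6 genes on 6 chromosomes. Within 1 Mb of them 87 genes were tested, of which 12 were called higher and 3 lower, or 17.2%, against 6.88% of all genes. Most of these lay near 2 of the 6. Near Prm1 5 of 22 genes were called higher and 1 lower, and near Gpr176 5 of 25 were called higher and 2 lower. Near Nyx 0 of 10 and near Rasgef1a 0 of 9 were called, and near Pls1 and Dnah5 1 each of 15 and of 6. In windows of 5 Mb, 22 of 350 genes were called higher and 11 lower, or 9.43%. Under median centring the counts within 1 Mb were 58 higher and 1 lower, against 9958 and 384 of all 15101 genes. The called share within 1 Mb was then no larger than that over all genes.

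Near Prm1, the nearest tested gene on the lower-coordinate side was Prm3, a protamine relative of the same cluster. Prm3 had ratios of -0.20 and 0.22 and no call (limma adjusted p = 0.97). Neither of its channels was well above background on both arrays, so these ratios are between dim readings. The transcript ENSMUST00000096279, 5.4 kb to the other side, had ratios of 0.61 and 0.55 and rose by 0.58 (limma adjusted p = 0.047), a call lost under 5 of the settings tried. Socs1, an inhibitor of cytokine receptor signalling 12.4 kb from Prm1, had ratios of 1.13 and 1.44 and rose (mean 1.28 ± 0.14, SE, limma adjusted p = 0.0068). Txndc11, a thioredoxin-domain protein of the endoplasmic reticulum, had ratios of 1.04 and 1.21 and rose by 1.12 (limma adjusted p = 0.0075). Ciita, the transactivator of class II genes, had ratios of -1.08 and -1.35 and fell by 1.21 (limma adjusted p = 0.0073). Genes on the same stretch thus moved in both directions, and the call of Socs1 was lost with unpaired channels.

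Near Gpr176, Bmf, a pro-apoptotic BH3-only protein encoded 251 kb away, had ratios of 2.27 and 2.15 and rose (mean 2.21 ± 0.12, SE, limma adjusted p = 0.0013). Its other probes were lower, between 0.62 and 1.33 on single arrays. Eif2ak4, a kinase that senses amino acid shortage and the nearest tested gene on one side, had ratios of 1.50 and 1.46 and rose by 1.48 (limma adjusted p = 0.0032). Fsip1, a protein of the sperm fibrous sheath and the nearest gene on the other side, had ratios of 0.78 and 0.88 and rose by 0.83 (limma adjusted p = 0.017). Inafm2, which encodes a small membrane protein, had ratios of 0.76 and 1.19 and rose by 0.98 (limma adjusted p = 0.019). With unpaired channels the calls of Bmf, Fsip1 and Inafm2 were lost. Strain and Rag1 genotype differ between the groups and cannot be told apart from the other differences.

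Near Pls1 the 1 called gene was Tfdp2, a partner of E2F transcription factors, with ratios of 0.80 and 1.09 (limma adjusted p = 0.015). The genes next to Pls1, Trpc1 and 1700065D16Rik, were not called at their brightest probes (limma adjusted p = 0.25 and 0.29), and the other Trpc1 probes gave -0.03 and 0.31, and 0.73 and 0.91. Near Dnah5 the 1 called gene was Trio, a guanine nucleotide exchange factor, with ratios of 1.17 and 0.98 (limma adjusted p = 0.0083). The calls of Tfdp2 and Trio were lost with unpaired channels. The other probes of Tfdp2, and those of Eif2ak4, Fsip1 and Txndc11 above, were between 0.47 and 1.47 on single arrays. The nearest tested genes of Nyx, Ddx3x and AK029410, and of Rasgef1a, Hnrnpf and Csgalnact2, were not called, nor was AK047015 near Dnah5 (limma adjusted p between 0.070 and 0.95).

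**Figure D4:**
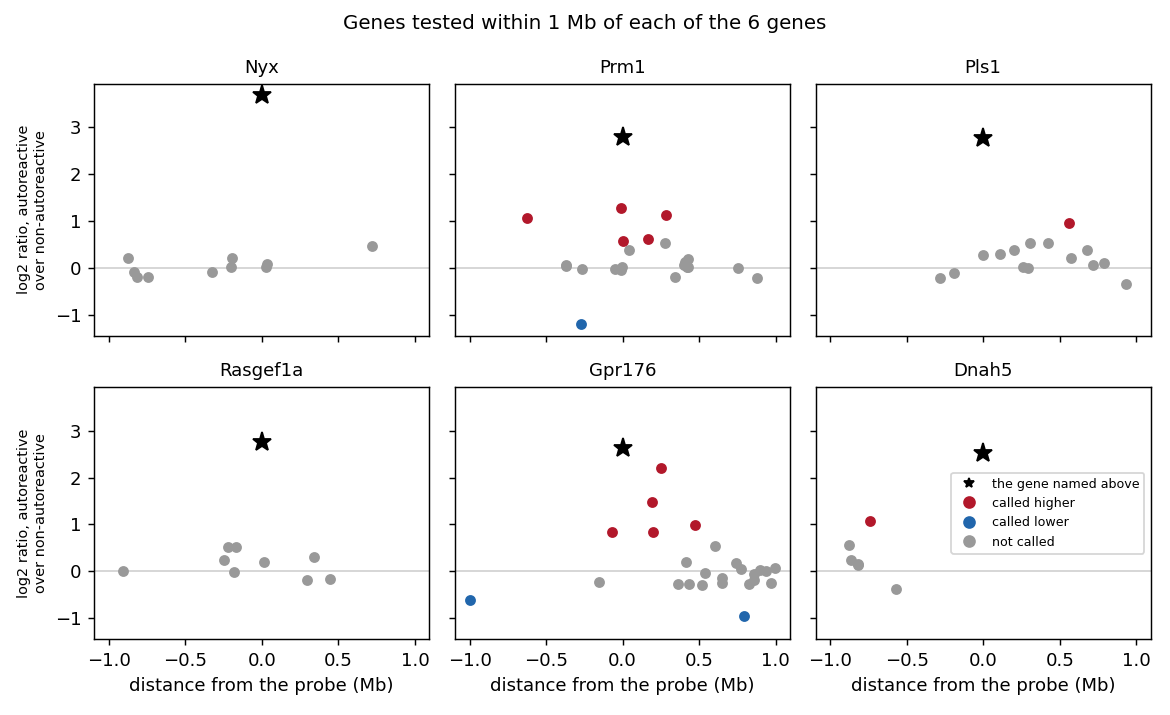
Mean log2 ratio (vertical axis, autoreactive over non-autoreactive) of genes tested within 1 Mb of each of the 6 genes against the distance from its brightest probe (horizontal axis, Mb), with called higher in red, called lower in blue, not called in grey and the gene itself as a star. The red points gather near Prm1 and Gpr176 with 5 each, no red or blue point lies near Nyx or Rasgef1a, and Rasgrp1, the leftmost blue point near Gpr176, turned to positive under median centring.

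The genes closest to the 6 by the distance between their pairs of log2 ratios over the 2 arrays were sought. The candidates were 11943 genes with a RefSeq name, and the 6 themselves were left out. Irs1, the insulin receptor substrate, with ratios of 2.45 and 3.18, was the closest to Gpr176 at a distance of 0.31, to Pls1 at 0.38, to Rasgef1a at 0.45 and to Prm1 at 0.49. Stk3, a kinase of the Hippo pathway, with 2.09 and 2.59, was the closest to Dnah5 at 0.26. Klra16, of the killer cell lectin-like receptor family, with 3.55 and 4.42, was the closest to Nyx at 0.52. With 2 arrays this likeness is a matter of size alone.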

How the data were processed

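For each channel the deposited scanner files give a spot's mean intensity and the median intensity of its surroundings, and per the file headers both were read with Agilent Feature Extraction 9.5.1.1. Its deposited log10 ratio (Cy5 over Cy3, background-subtracted and dye-normalised, per the file headers) served as an alternative. The same program wrote the deposited flag values (other) for spots well above background, saturated or outlying. Probe positions come with no genome build.

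Intensities were corrected with normexp (offset 50) and loess in limma 3.58.1 (R 4.3.3), control and outlier spots having no weight. Of 41174 probes, 22612 were tested, being well above background in 1 or both channels of each array. Genes took their brightest tested probe. Log2 ratios were tested two-sided with limma's eBayes (1 residual and 5.1 prior degrees of freedom) and Benjamini-Hochberg adjustment over 15101 genes at 0.05. On simulated data with known changes the fit called 13.4% of 1.5-fold, 81.6% of 2-fold and 99.8% of 4-fold changes. Of its calls, 12.5% were unchanged genes. These percentages depend on the number of changed genes simulated, which was below the number called here. They are not error rates of the calls above. The number of arrays, 2, limits the precision. Pairing is by array, since each holds both groups.

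Members and lists were chosen with earlier results of these data known. Named are the 6 genes, fixed relatives, up to 3 called genes per list with the largest ratios, nearest and up to 3 called genes within 1 Mb where more were called, and the nearest gene by ratio. A gene that the rule names is not reported here. Names and promoters are those of RefSeq, GRCm38.p6, and all 6 genes matched.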

Additional observations from a re-analysis of the deposited data

How the results depend on the processing

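The median over the 6 genes, 2.77, was 2.89 without background correction, 2.99 with an offset of 16, 3.54 with the deposited ratios, 3.21 under median centring, 2.49 as a mean over probes, and between 2.69 and 2.85 on single arrays. Over the whole table, calls higher and lower, 592 and 447, came to 320 and 335 with the deposited ratios, 9958 and 384 under median centring, and 426 and 297 with no filter on dim probes. The separate-channel fit with no replicate block, which leaves out the pairing by array, gave 158 and 100. For the lists (2 and 7), these were 2 and 4 with the deposited ratios, 37 and 3 under median centring, and 0 and 2 without the block. Within 1 Mb (12 and 3) they were 58 and 1 under median centring and 3 and 1 without the block, and within 5 Mb 22 and 11. Reversed under median centring were Dnah8 (0.10), Lcp1 (0.64), Pls3 (0.50), Rasgrp1 (0.36) and Dnah5 probe A_52_P548463 (-0.15). Of 19 named calls, 14 were lost without the block, 5 with the deposited ratios, 4 under median centring, 2 each with no filter, a mean over probes and adjustment over probes (chosen after seeing the data), 1 each with an offset of 16 and with trended robust variance, and 0 without background correction. With both channels well above background, 0 of the calls still tested were lost. Rapgef4, dim in the autoreactive channel, was not tested under that setting. The call of Dkkl1 was lost with the deposited ratios, with no filter, with trended variance, with adjustment over probes, under median centring and without the block. The causes were not tested. Single arrays allow no test, so no counts were made without an array. Dye was not swapped, and dim Cy3 spots limit the size of the ratios.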
